A study of Drosophila melanogaster with 4 samples.

Results

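Isolated Myc peaks are sites of Myc signal on the Drosophila chromosomes with no other peak close by on either side. They were chosen by their distances within the authors' peak list: on the 5 long chromosome arms (2L, 2R, 3L, 3R and X), a peak was a member where the peak-free gaps to its left and to its right were each at least 20000 bp. The rule found 402 such peaks among 7768 on these arms (5.18%), in a list of 8614 peaks. A further 5140 peaks (66.2%) had both gaps below 20000 bp and are called crowded here. Another 2216 (28.5%) had 1 gap of each kind, and the 10 first and last peaks of the arms have a neighbour on 1 side only and were placed in no set.

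Myc is a basic helix-loop-helix leucine zipper protein that pairs with Max and binds short DNA words known as E-boxes. It is known as a driver of cell growth and of ribosome production, and Drosophila has a single Myc gene, diminutive (dm). In the late larva, polyploid tissues that grow without dividing lie beside the dividing cells of imaginal discs and brain.

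The data come from chromatin immunoprecipitation followed by sequencing (ChIP-seq) on whole wandering larvae at the L3 stage, grown at 25 °C and fixed in 1.8% formaldehyde for 15 min. The labels give 2 Myc ChIP libraries and 2 libraries of input DNA. The antibody was a rabbit polyclonal whose antigen was the stretch of Drosophila Myc from amino acid 46 to 507. All 4 share the strain Y cn bw sp and its genotype. Its alleles are y[1] and oc[R3.2], then Gr22b[1], Gr22d[1] and cn[1] with CG33964[R4.2], bw[1] and sp[1], and also LysC[1], lab[R4.2] and MstProx[1] with GstD5[1] and Rh6[1]. Sex was not recorded, and the tissues of the larva were not separated, so a peak cannot be assigned to a cell type. Nor do the labels say whether the replicates were separate batches of larvae.

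The list carries no value for a single library. Sequencing depth is therefore unknown, and the spread between replicates could not be computed. Peaks of 1 list are not replicates of a condition, so the sets are compared by their medians, quartiles and counts, without p-values. Score and width were not part of the rule, yet they come from the same peak calling as the positions that were. The score orders peaks within the list. Its scale is named nowhere, so differences and no ratios of scores are given. Positions are on FlyBase Release 5 and count from 1. No genome of that release was used here, so genes and sequences under the peaks were not analysed here.

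Isolated peaks covered the whole range of strength found on the arms. Their scores ran from 6.87 to 1011.32, with a median of 80.1 and quartiles at 25.6 and 196. Crowded peaks ran from 6.58 to 925.32, with a median of 59.3 and quartiles at 21.4 and 150. Peaks with 1 gap of each kind lay between, with a median of 69.4. The isolated median was 20.8 score units above the crowded one, and the 2 distributions overlapped over nearly their whole length.

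Isolated peaks were more frequent at the top of the score range and less frequent at the bottom and in 1 stretch of the middle. The top decile of the long-arm peaks, those scoring above 318.98, held 56 isolated peaks, or 13.9% of them, where 9.99% of all long-arm peaks fall in it and 9.16% of the crowded ones. At the other end, 31 isolated peaks (7.71%) were in the bottom decile, which held 10.0% of all long-arm peaks and 11.1% of the crowded ones. Of the peaks with 1 gap of each kind, 7.9% were in the bottom decile, close to the isolated share, and 11.2% in the top one. Above a score of 500 the sets were alike, with 14 isolated peaks (3.48%) against 3.51% over all long-arm peaks. The stretch in the middle stood out after the values were seen: decile 5, from 43.05 to 62.42, held 22 isolated peaks (5.47%) beside 10.3% of the crowded ones, while each of the other deciles held from 31 to 56.

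Isolated peaks were slightly narrower at the median, although they scored higher. The narrowest was 201 bp and the widest 5687 bp. Their median width was 692 bp, with quartiles at 387 and 1115 bp. Crowded peaks had a median of 759 bp with quartiles at 448 and 1201 bp, so the isolated median was lower by 67 bp. With X left out the difference was 0 bp. The smallest width of the whole list is also 201 bp. Peaks of at most 300 bp made up 12.9% of the isolated set (52 peaks), beside 11.1% of all long-arm peaks. Very broad peaks were few: 5 isolated peaks (1.24%) were wider than 3000 bp, beside 2.82% of all long-arm peaks and 3.15% of the crowded ones.

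**Figure D1:**
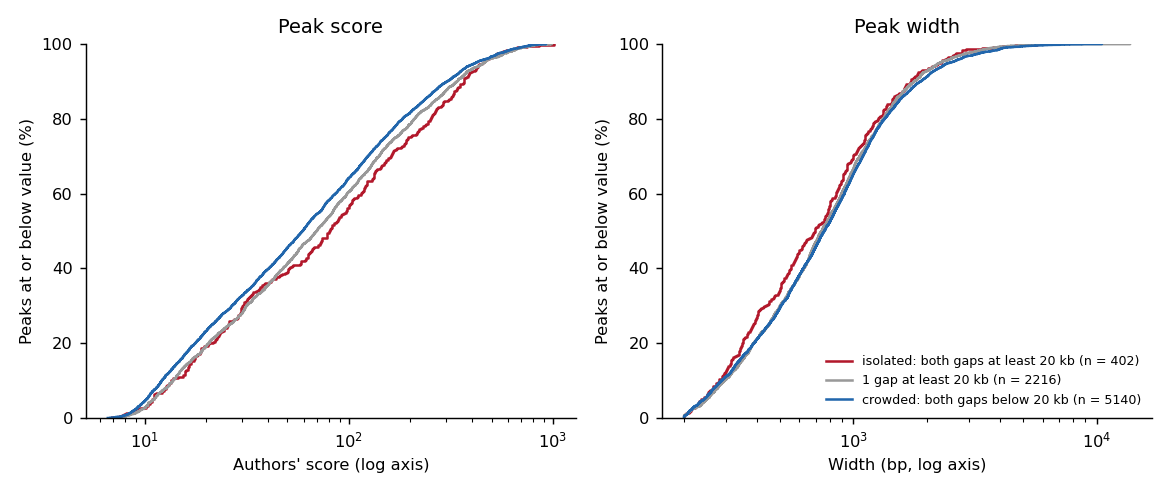
Cumulative share of peaks (%) at or below a given score (left, log axis) and width in bp (right, log axis) for isolated peaks, peaks with 1 gap of each kind and crowded peaks. The isolated curve lies to the right of the crowded one for score (medians 80.1 and 59.3) and to the left for width (medians 692 and 759 bp).

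Score and width rose together in each set, with a Spearman's rho of 0.82 across the 402 isolated peaks and 0.83 across the 5140 crowded ones, both values coming from the same peak caller. Widths were therefore also set side by side within 5 score classes holding equal shares of the long-arm peaks. In each class the isolated peaks had the lowest median width and the crowded ones the highest. In the weakest class the medians were 288 bp for 71 isolated and 311 bp for 1098 crowded peaks. In class 2 they were 401 and 539 bp, and in class 3 they were 629 and 775 bp. Class 4 gave 906 bp against 1047 bp. In the strongest class 101 isolated peaks had a median of 1245 bp and 966 crowded peaks one of 1447 bp, a difference of 202 bp. The median score of the isolated peaks was above that of the crowded ones in all 5 classes, at 12.89 against 12.37 in the weakest and 331.6 against 315.4 in the strongest.

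Counted peak by peak, 246 of the 402 isolated peaks (61.2%) were narrower than the median of their score class, beside 49.9% of all long-arm peaks. The share was 53.7% for peaks with 1 gap of each kind and 47.5% for crowded peaks. When each class was also divided by arm, the isolated peaks had the lower median width in 24 of 25 cells, with between 8 and 27 isolated peaks in a cell. The exception was class 3 on 2R, where 8 isolated peaks had a median of 829 bp and the crowded ones 799 bp.

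**Figure D2:**
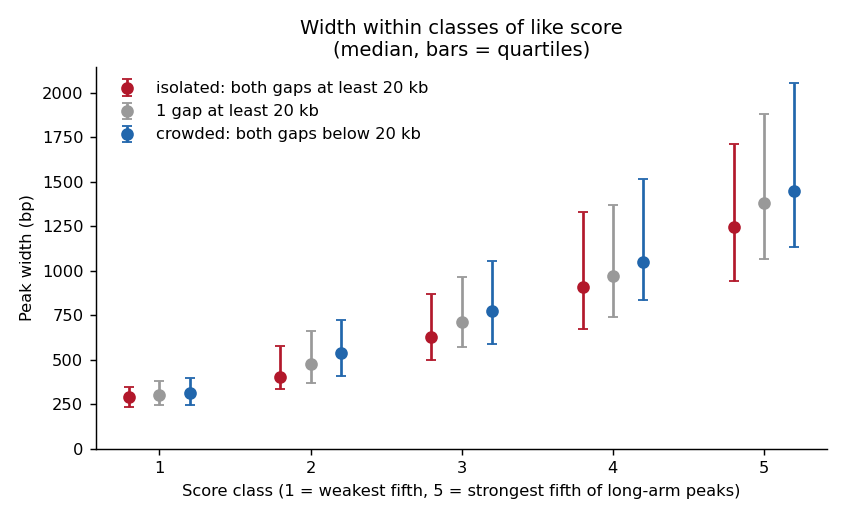
Median peak width in bp (points) with quartiles (bars) in 5 score classes from the weakest (1) to the strongest (5), for isolated peaks, peaks with 1 gap of each kind and crowded peaks. In every class the isolated median is the lowest, from 288 bp against 311 bp in the weakest to 1245 bp against 1447 bp in the strongest.

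Most of the difference in score lay in crowded peaks with a very near neighbour. The 1640 crowded peaks with another peak less than 1000 bp away had a median score of 31.0, and the 3500 others one of 73.3. Against those 3500 the isolated median was higher by 6.76 in place of 20.8. Next to the 783 peaks whose nearer neighbour lay 10000 to 20000 bp away, with a median score of 77.5, the difference was 2.57. Score therefore climbed with the distance to the nearer neighbour only over short distances. The median was 28.7 below 500 bp, 60.9 at 1000 to 2000 bp and 75.9 at 2000 to 5000 bp. It was 77.5 at 10000 to 20000 bp.

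Beyond the limit of the rule there was no steady trend. The 202 members with a nearer neighbour 20000 to 30000 bp away had a median score of 94.5, and the 134 at 30000 to 50000 bp one of 58.1. The 53 at 50000 to 100000 bp had a median of 62.9, and the 13 still farther out one of 84.2. Across all 402 members, Spearman's rho between the smaller gap and the score was −0.05, and between the smaller gap and the width −0.04.

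The narrowness within a score class kept its direction in all 5 classes against each of these comparison sets. In classes 2 to 5 it was largest beside the 1640 crowded peaks with a very near neighbour, at 244 bp in class 2 and 628 bp in class 5, and in class 1 it was smallest there, at 17.5 bp. Beside the other sets it was smaller in classes 2 to 5 than against all crowded peaks, and in class 1 slightly larger. Against the 3500 crowded peaks without a very near neighbour, isolated peaks were narrower by 25.5 bp in the weakest class and by 144 bp in the strongest, with the other 3 classes at 98, 102.5 and 87 bp. Set beside the 783 peaks with a nearer neighbour at 10000 to 20000 bp, the 5 differences ran from 26 to 59 bp. Isolated peaks did not always score higher within these classes. In class 1 their median score was 12.89, against 13.42 for the 3500 and 13.15 for the 783. It was also lower in class 2 beside the 783 (28.72 against 30.45) and in class 4 beside the 1640 (132.09 against 132.13). In the remaining classes it was higher. Of those 783 peaks, 442 (56.4%) were narrower than the median of their class. The share rose from 37.0% where the nearer neighbour was under 500 bp away to 66.4% at 30000 to 50000 bp, and was 60.4% and 53.8% in the last 2 distance classes, which hold 53 and 13 peaks.

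**Figure D3:**
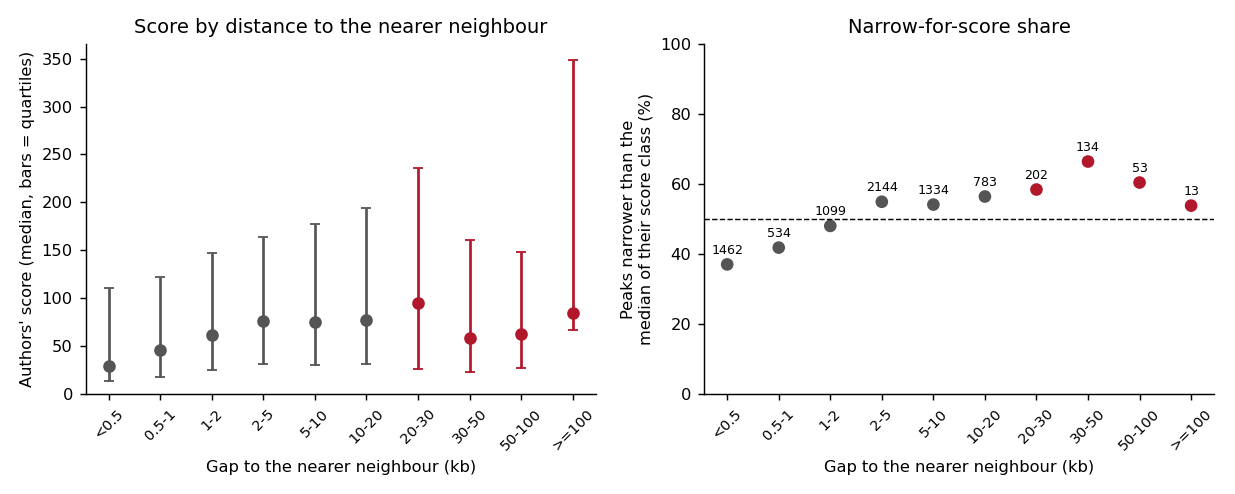
Left, median score (points) with quartiles (bars) by the gap in kb to the nearer neighbour. Right, share of peaks (%) narrower than the median of their score class, with the number of peaks above each point and a dashed line at the 49.9% of all long-arm peaks. Isolated peaks are in red: the median score is between 75.4 and 77.5 from 2 to 20 kb and then varies without a trend, and the narrow share goes from 37.0% below 0.5 kb to 66.4% at 30 to 50 kb.

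The arms differed in how isolated peaks compared with crowded ones. On 3L the isolated median score was 93.9 against 57.4 for the crowded peaks, and on 3R 89.1 against 59.5. The autosome arms 2R and 2L gave 76.6 against 56.6 and 75.6 against 60.2. X went the other way, with 46.3 for 80 isolated peaks against 64.1 for 1004 crowded ones. The quartiles on X were 25.5 and 138 for isolated peaks and 22.1 and 158 for crowded ones, so the sets overlapped widely there too. Peaks with a gap of each kind did not lie between isolated and crowded peaks on every arm. Their median score was 80.37 on 2R and 72.2 on X, above both other sets. On 2L it was 57.68, below both. On 3L and 3R it lay between, at 59.05 and 74.19. In score classes 1 to 5, which hold equal shares of all long-arm peaks, the 80 isolated X peaks numbered 12, 27, 10, 14 and 17. The 1004 crowded X peaks numbered 212, 188, 211, 192 and 201 in the same classes. In the top decile were 10 isolated X peaks (12.5%), beside 9.46% of the crowded X peaks. Whether X differs from the autosome arms could not be tested without values per library.

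Width without regard to score also depended on X. There the isolated median was 591.5 bp and the crowded one 804 bp. Over the autosome arms together the medians of 322 isolated and 4136 crowded peaks were both 747 bp. By arm, isolated peaks were narrower on 2L (658.5 against 756.5 bp) and 3R (674 against 773.5 bp), and wider on 2R (817 against 723 bp) and 3L (793 against 738 bp). Relative to their score class, however, isolated peaks were more often narrow than crowded ones on every arm. The share narrower than the class median was highest on X, at 67.5%. It was 62.6% for 3R and 61.5% for 3L, then 58.3% for 2L and 54.1% for 2R, and the crowded peaks of the same arms had from 44.2% to 49.1%.

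**Figure D4:**
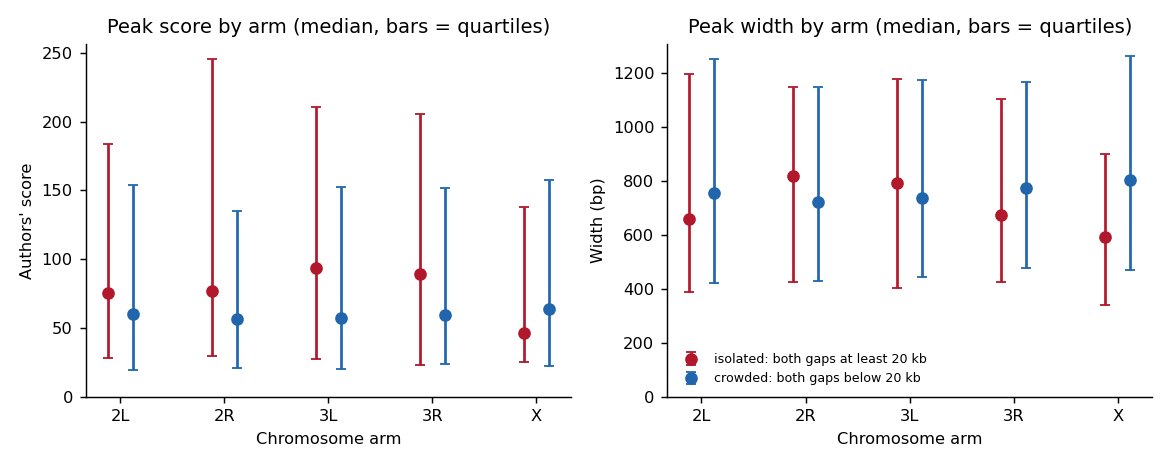
Median score (left) and width in bp (right) of isolated and crowded peaks on the 5 long arms, with quartiles as bars. The isolated median score is above the crowded one on 2L, 2R, 3L and 3R and below it on X (46.3 against 64.1), and the quartile ranges overlap on every arm.

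Isolated peaks were found along all 5 arms. The arm 2L had 84 of them, 5.75% of its peaks, and X had 80, or 5.48%. The arm 3R had the most, 99 (5.45%), and 3L had 78 (5.01%). The fewest, 61 (4.13%), were found along 2R. Per Mb, the numbers ran from 2.89 on 2R to 3.66 on 2L. Over 121 windows of 1 Mb the median was 3 isolated peaks, and 6 windows held none. The most in a window was 8, reached on 2R between 0 and 1 Mb and between 15 and 16 Mb, on 3R between 17 and 18 Mb and on X between 9 and 10 Mb. Between neighbouring members of an arm lay a median of 193 kb, with a range from 20.2 to 1449 kb.

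Where peaks were sparse near the centromere, isolated ones were a larger share, which the rule itself favours. The span of each arm was divided into 10 equal segments. In the segment on the centromeric side, 54 of 496 peaks (10.9%) were isolated, and in the others from 3.34% to 5.78%. The lowest share, 30 of 897 peaks, was at the telomeric end. Within 1 Mb of the centromeric end of the listed peaks, 26 of 135 peaks (19.3%) were isolated, against 376 of 7633 (4.93%) elsewhere. There, 5 of 8 peaks on 3L were isolated, as were 8 of 25 on 2R and 6 of 21 on 2L. The counts were lower on X (3 of 20) and 3R (4 of 61). Elsewhere on the arms the shares ran from 3.65% on 2R to 5.42% on 2L and 3R. On 3R the share near the centromeric end, 6.56%, was thus only slightly higher. The 26 isolated peaks near the centromeric ends had a median score of 90.3, with a range from 10.62 to 429.7, and the 376 others a median of 78.7. Crowded peaks also scored higher on that side. In the centromeric segment their median was 88.1, above the isolated 84.4, and in the other segments it ran from 47.2 to 63.6. The isolated median was also lower in segment 2 from the telomeric end (54.75 against 61.81), and higher in the rest.

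**Figure D5:**
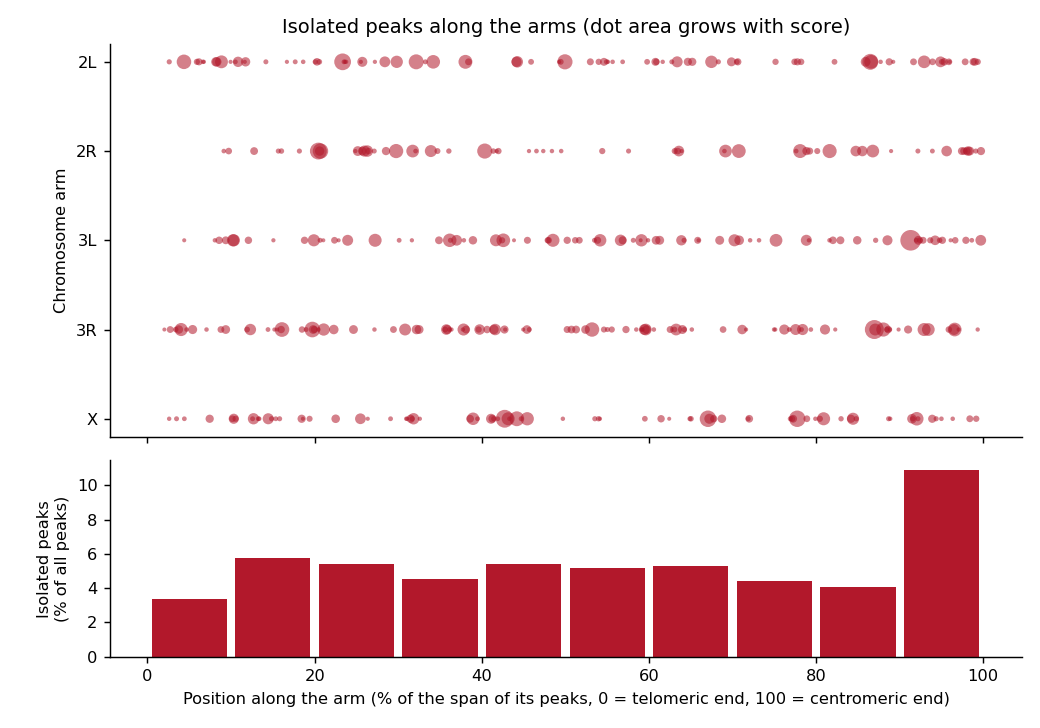
Top, each isolated peak along its arm, as % of the span of the arm's peaks from the telomeric (0) to the centromeric end (100), with dot area growing with score. Bottom, isolated peaks as % of all peaks in each of 10 segments of the span, which is 10.9% in the last segment and 3.34% to 5.78% in the others.

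The empty sequence around isolated peaks was wide by the rule itself, which asks for at least 20000 bp on each side. The smaller of the gaps had a median of 29952.5 bp and the larger one of 59092 bp, and both together had a median of 94999.5 bp with a highest value of 457 kb. At least 50000 bp were free on both sides of 66 members, and at least 100000 bp on both sides of 13. The gaps beside members added up to 37.7 Mb, or 31.7% of the 118.9 Mb from the first to the last peak of each arm. These were 685 of the 1511 gaps of at least 20000 bp, which together made up 75.1 Mb, or 63.1%. Within 100 kb on either side, an isolated peak had a median of 9 other peaks, with quartiles at 5 and 12, where a crowded peak had 17. The rule fixes part of this difference, since it was applied to the same distances.

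Peaks next to a member were much like the members in strength. The 566 neighbours that were not isolated themselves had a median score of 81.8 and a median width of 743.5 bp. A member scored above both its neighbours in 127 cases (31.6%), beside 33.4% of all peaks with 2 neighbours, and below both in 143 (35.6%), again beside 33.4%. Both shares were near those of the whole list.

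Isolated peaks stood next to another member in 201 of 402 cases, which the rule itself favours. A neighbour shares the long gap of the member beside it, so only its other gap still has to reach the limit. Of the 7763 gaps on the long arms, 1511 reached it. How many members the rule alone would place in runs was not computed. Of the 402, 201 were single members between peaks that were not isolated, and the other 201 formed runs: 56 of 2 members, 17 of 3, 7 of 4 and 2 of 5. The first run of 5 extended over 251 kb near the base of 2L. It began with the peak from 21794607 to 21795827, which scored 254.86, and its other members scored 50.1, 106.33, 78.23 and 11.11 in order along the arm. The other run of 5 covered 173 kb on 3R from 11233846 to 11406748. Its members scored 152.68, 304.91, 252.36, 16.8 and 22.44, and none was wider than 906 bp. Strong and weak peaks thus stood side by side in both runs.

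The strongest isolated peak, on 3L from 22400522 to 22401739, is also the strongest of all long-arm peaks. It scored 1011.32 with a width of 1218 bp, and the nearest peaks lay 55.5 kb to its left and 46.6 kb to its right. Another, on 3R from 3634445 to 3636674, scored 852.26 and ranked 14 among long-arm peaks. Next came a peak of 4636 bp on X, from 9577851 to 9582486, with a score of 748.95 and 89.8 kb free on its right. These 3 are the strongest members of their arms.

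The strongest members on the remaining arms ranked 95 and 101 among long-arm peaks. The member on 2R from 16825208 to 16826653 had a score of 663.41, and that on 2L from 5365477 to 5366902 one of 655.26. X held 2 more of the 10 strongest members, with scores of 636.02 (from 15029925 to 15034013) and 630.98 (from 17425636 to 17426992). The last 3 of the 10 were on 2L from 19864799 to 19866171 (591.04), on 3R from 22391442 to 22393765 (568.94) and on 2R from 16771558 to 16772465 (553.78). The last of these was only 908 bp wide, below the median of its score class, with 47.1 and 21.3 kb free beside it.

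Isolation at its most extreme did not go with 1 kind of peak. By the smaller of its gaps, the most isolated member lay near the base of 3L from 24194294 to 24194588, with 172 kb free on its left and 263 kb on its right. It was weak and narrow, with a score of 23.1 and a width of 295 bp. Farther out on the same arm, the peak from 18452857 to 18454679 had 202 and 156 kb free beside it, scored 365.75 and was 1823 bp wide. The members on 3L from 23573725 to 23573953 and from 23707643 to 23708620 share a gap of 134 kb and scored 10.62 and 72.98.

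On X, the members from 22054120 to 22054707 and from 22226428 to 22226978 share a gap of 172 kb and scored 84.16 and 66.34. The remaining 4 of the 10 most isolated members were on 2L. They began at 14851315, 15498634, 16049575 and 17260653 and scored 132.72, 348.53, 166.4 and 65.84. The last of them bordered a stretch of 350 kb without a peak, and its gaps together, 457 kb, were the longest of any member. Among these 10 members, scores from 10.62 to 365.75 and widths from 229 to 1850 bp were seen, so the most isolated peaks were neither all weak nor all strong.

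The widest isolated peak was on 3R from 10248613 to 10254299, 5687 bp wide with a score of 309.29. Next in width were the peaks of 4636 and 4089 bp on X already named, with scores of 748.95 and 636.02. The others wider than 3000 bp were on 3R, from 1832193 to 1835952 (3760 bp, score 366.88) and from 13055943 to 13059328 (3386 bp, score 477.5). All 5 scored in the strongest score class.

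The narrowest members sat at the width floor and near the score floor of the list. Peaks of 201 bp lay on 3L from 5626808 and on 3R from 15354581 and 23562404, with scores of 8.99, 8.77 and 8.11. Those of 202 bp on 3R from 27331062 and of 204 bp on 3L from 5177874 scored 7.69 and 8.05. The weakest member of all, on 3L from 10769427 to 10769730, scored 6.87, and the next, on 3L from 14484340, 7.48. A weak member on X from 13992433 scored 7.9 and had 83.3 and 64.7 kb free beside it.

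Peaks on either side of the limit had scores as mixed as the rest. The 5 members nearest to it had smaller gaps from 20011 to 20108 bp and scores of 201.68, 116.53, 171.9, 13.69 and 8.77. The 5 peaks with 1 long gap that fell just short had smaller gaps from 19875 to 19984 bp and scores of 13.69, 75.97, 137.19, 9.67 and 13.28.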

How the data were processed

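The deposited file is 1 list of peaks for 2 Myc ChIP and 2 input libraries. The score of a peak is the value the authors' peak caller gave. The source column names MACS, and the build is FlyBase Release 5, per the file headers. Starts and ends are used as the authors deposited them. The tools named in the submitters' processing notes are MACS2, BWA and CASAVA (1.7.0.2, 1.7.0.3), and the build there is BDGP5. The peak threshold is not given in the sources used here, nor are filters or any pooling of libraries. A peak caller may join nearby signal or list it as several peaks, which changes gaps, widths and scores together.

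Peaks were sorted by start within each arm. A gap is the next start minus the previous end minus 1. Medians, quartiles and Spearman's rho were computed with pandas 2.3.3 and Python 3.11.15. The rule was checked on simulated peaks against an exhaustive search. No hypothesis test was run, since no value belongs to a library. Alternatives changed the gap limit, merged near peaks, kept stronger peaks, left out arms or changed the comparison set.

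The members and lists were chosen with earlier results of these data known. Named peaks are the 10 strongest, the 10 with the largest smaller gap, the 5 widest, 5 narrowest and 5 weakest members, the strongest of each arm, 5 peaks on each side of the limit and the longest runs. Positions in a Release 6 gene table were not used, so the planned shares at gene starts and with an E-box were not computed.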

Additional observations from a re-analysis of the deposited data

How the results depend on the processing

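A limit of 10000 bp in place of 20000 bp gave 1185 isolated peaks and a crowded median score of 52.96, and a limit of 50000 bp gave 66 and 62.37. Merging peaks less than 1000 bp apart gave a crowded median score of 76.4 and median widths of 799.5 bp (isolated) and 896 bp (crowded). With only peaks at or above the median score there were 680 isolated peaks, with median scores of 167.1 (isolated) and 149.7 (crowded) and median widths of 1097.5 and 1166.5 bp, higher by construction. Without crowded peaks that had a neighbour less than 1000 bp away, the crowded medians were 73.3 and 794.5 bp. Against peaks with a smaller gap of 10000 to 20000 bp, an alternative chosen after seeing the data, the difference in median score was 2.57. The other 59 of 74 values stayed within 1.5 times for counts, or within the 95% binomial interval for medians. Differences were judged by the bounds these intervals give. The intervals treat peaks of 1 list as separate draws. For width they were 600 to 787 bp (isolated) and 737 to 779 bp (crowded). The bounds thus include 0 bp, and a lost width difference still counts as staying. Isolated medians could not change where only crowded peaks were left out. Among the 59 values, the difference in median score ran from 6.76 to 26.9. The difference in median width ran from −133 bp with the 50000 bp limit to −8.5 bp with the 10000 bp limit, and was 0 bp with X left out. No paired analysis was possible because the list has no values per replicate, so none could be left out either. The unknown depth limits what an empty gap means, since weaker signal there may lie below the authors' threshold. Other windows for gene starts and the E-box were not run.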

Other observations

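Chromosome 4, the small and largely heterochromatic autosome, was not part of the rule. Applied to it, the rule found 6 of 99 peaks (6.06%) isolated. They began at 378545, 807719, 887004, 925109, 1105087 and 1167050 and scored 109.63, 112.3, 214.08, 47.55, 112.9 and 54.24. Their median width was 1082 bp, above the 692 bp of the long arms, from 6 peaks.

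On the heterochromatin scaffolds isolated peaks were 8 of 18 on 3LHet, 7 of 23 on 2RHet and 5 of 15 on 3RHet, with median scores of 57.5, 73.5 and 51.5. The scaffolds 2LHet and XHet, with 4 and 3 peaks, held none. U and Uextra collect pieces with no chromosome of their own, so a gap there may run across a join. They held 37 of 86 and 229 of 598.

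Peaks less than 1000 bp apart, when merged, gave 60 further regions that stood alone together, 47 of them pairs and the largest of 4 peaks. The highest score of each had a median of 118.7, against 80.1 for the 402 single peaks, and the regions had a median width of 2432 bp. Taking the highest of several scores raises that median by itself.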
